A study of Mus musculus with 14 samples.

Results

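The binding sites of Sp5 in mouse gastruloids were compared with those of the coactivator p300 in the same kind of gastruloid. Peaks of the 2 libraries of each protein were merged where they shared at least 1 bp, and a region was kept where both libraries had a peak, after peaks over a peak of an input library had been dropped. This gave 10953 Sp5 regions and 53025 p300 regions, 63978 in all, from 4 of the 14 libraries of the series. Of the Sp5 regions, 9282 overlapped a p300 region and 1671 did not. Of the p300 regions, 9191 overlapped an Sp5 region and 43834 did not.

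Gastruloids are aggregates of mouse embryonic stem cells (mESCs) that elongate and lay down germ layers along a head-to-tail axis. They were started from 300 sorted cells per well in NDiff227 medium, received 3 μM of the Wnt pathway activator CHIR99021 at 48 h and were collected at 120 h. Every group carries the cell line name E14_triple reporter; the growth protocol describes a BRA-GFP (Brachyury) and SOX17-RFP reporter mESC line. Chromatin was crosslinked with disuccinimidyl glutarate and then formaldehyde. For Sp5, the endogenous gene carried an HA tag and an FKBP12F36V degron tag (genotype endogenous Sp5-HA-FKBP12F36V degron tag), and HA antibody was used. For p300, the endogenous gene carried a V5 tag and the biotin ligase miniTurboID (genotype endogenous p300-V5-miniTurboID), and V5 antibody was used. The inputs, 1 from gastruloids and 1 from mESCs, came from the p300 line, so no input of the Sp5 line was used here. A pull-down from untagged cells was not analysed here either. Since tag, antibody and line differ together between Sp5 and p300, those 3 factors cannot be told apart from the protein in any comparison of the lists. The labels do not say whether the 2 libraries of a protein came from separate cultures, and the spread between them may be technical.

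Sp5 is a zinc-finger factor of the Sp and Klf family that binds GC-rich sequence, and its own gene is a direct target of Wnt and β-catenin signalling. In the primitive streak and tail bud it acts with its relative Sp8, and it has been described both as supporting and as dampening the response to Wnt. p300, encoded by Ep300, binds no DNA sequence of its own; transcription factors bring it to enhancers and promoters, where it acetylates histones and other proteins. A p300 peak is therefore widely read as a mark of an active regulatory element, and a GC box is the classic binding sequence of Sp factors at promoters.

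The 4 lists differed in length: 19714 and 11932 peaks were used for Sp5 replicates 1 and 2, and 63117 and 75346 for p300 replicates 1 and 2. Median numbers of fragments at the summit were 21 and 25 for Sp5 and 24 and 18 for p300. Within 1 kb of an end of a RefSeq protein-coding gene, called a gene end below, lay 49.4% and 59.6% of the Sp5 peaks, 16.96% and 15.4% of the p300 peaks and 67.3% of the 514 peaks of the gastruloid input. All other regions are called distal. The lists give no sequencing depth, and a peak call is taken here as presence. With 2 libraries against 2 an exact test cannot give a p under 0.333, so no p was computed. Differences were set against the spread over the 4 pairs of 1 Sp5 and 1 p300 library. The 4 pairs reuse the same 2 libraries of each protein, so they are not independent.

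Promoter sequences of single genes are given as examples. The first 3 were chosen to hold a GC box, and no sequence outside promoters was read. The 250 bases before the transcription start are given 5′ to 3′ in the direction of the gene, from RefSeq on GRCm38.p6. Capitals mark GC boxes (GGGCGG or its complement CCGCCC) and Tcf/Lef cores (CTTTGA or TCAAAG), the DNA sequence bound by the transcription factors of the Wnt pathway. Prdm9, which encodes the histone methyltransferase that places recombination sites in meiosis, Ap1s1, which encodes a subunit of the AP-1 clathrin adaptor, and Arhgap1, which encodes a GTPase-activating protein, are shown as the strongest Sp5 regions with p300 over a promoter that held a GC box.
Prdm9, chr17:15564355-15564604 (minus strand): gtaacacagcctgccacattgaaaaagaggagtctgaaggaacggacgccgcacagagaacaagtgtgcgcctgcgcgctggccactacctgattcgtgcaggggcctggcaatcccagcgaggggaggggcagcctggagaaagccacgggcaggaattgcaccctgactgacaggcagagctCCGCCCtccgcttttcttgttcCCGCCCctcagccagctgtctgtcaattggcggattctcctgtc
Ap1s1, chr5:137046109-137046358 (minus strand): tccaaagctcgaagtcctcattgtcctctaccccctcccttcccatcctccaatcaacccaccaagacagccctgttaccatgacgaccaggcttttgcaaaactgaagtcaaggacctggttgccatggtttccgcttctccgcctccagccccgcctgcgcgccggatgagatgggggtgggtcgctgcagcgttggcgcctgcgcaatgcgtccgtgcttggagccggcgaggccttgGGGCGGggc
Arhgap1, chr2:91649868-91650117 (plus strand): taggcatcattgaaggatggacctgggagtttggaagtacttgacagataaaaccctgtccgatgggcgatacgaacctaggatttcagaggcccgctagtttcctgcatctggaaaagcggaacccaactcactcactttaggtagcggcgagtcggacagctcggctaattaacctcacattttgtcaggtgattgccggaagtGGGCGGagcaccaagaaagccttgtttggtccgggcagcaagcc
A region's summit is taken as the mean of the summits of its strongest peak in each of the 2 libraries. At shared gene-end regions the summits of the 2 Sp5 libraries lay a median of 37 bp apart. Smaller distances to a box are therefore within that spread. In the Prdm9 promoter the Sp5 summit lay 60 bp before the start, 3 and 19 bp from the centres of its 2 GC boxes. In the Arhgap1 promoter the summit lay 8 bp from the only GC box. In the Ap1s1 promoter the GC box was 90 bp from the Sp5 summit. Srp72, which encodes a subunit of the signal recognition particle, was the strongest shared promoter with no GC box, Sp5-type box or CACCC box and with the Sp5 summit inside the bases shown, a condition added after the values were seen. Mobp, a myelin gene, was the strongest p300 region without Sp5 at a promoter.
Srp72, chr5:76974451-76974700 (plus strand): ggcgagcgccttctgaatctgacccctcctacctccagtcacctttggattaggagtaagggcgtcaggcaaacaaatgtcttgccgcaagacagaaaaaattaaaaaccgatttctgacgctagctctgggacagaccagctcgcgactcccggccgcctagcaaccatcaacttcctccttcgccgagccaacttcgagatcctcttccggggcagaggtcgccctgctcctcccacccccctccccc
Mobp, chr9:120149492-120149741 (plus strand): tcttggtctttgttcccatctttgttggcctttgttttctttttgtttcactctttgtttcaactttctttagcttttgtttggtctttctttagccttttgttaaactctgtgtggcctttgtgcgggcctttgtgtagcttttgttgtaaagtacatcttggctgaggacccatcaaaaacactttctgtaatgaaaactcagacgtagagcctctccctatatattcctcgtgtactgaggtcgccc
The promoters of T (Brachyury), a T-box factor of the primitive streak and tail bud, and of Sp5 itself are shown because both are known Wnt targets and both held Sp5 and p300.
T, chr17:8434173-8434422 (plus strand): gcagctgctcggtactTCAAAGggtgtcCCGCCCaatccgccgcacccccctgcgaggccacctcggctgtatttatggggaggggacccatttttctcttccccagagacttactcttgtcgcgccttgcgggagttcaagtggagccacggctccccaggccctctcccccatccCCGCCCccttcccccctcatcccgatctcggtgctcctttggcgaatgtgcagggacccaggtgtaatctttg
Sp5, chr2:70474673-70474922 (plus strand): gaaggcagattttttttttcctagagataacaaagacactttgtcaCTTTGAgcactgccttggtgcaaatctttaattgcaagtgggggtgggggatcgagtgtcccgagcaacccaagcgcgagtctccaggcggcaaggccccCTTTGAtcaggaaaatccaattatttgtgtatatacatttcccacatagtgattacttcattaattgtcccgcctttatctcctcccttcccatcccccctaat
In the T promoter 1 of the 2 GC boxes lay 6 bp and the other 143 bp from the Sp5 summit, and there was 1 Tcf/Lef core. The Sp5 promoter held no GC box and 2 Tcf/Lef cores, with the Sp5 summit 10 bp before the start.

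The authors' fold enrichment, the signal at a peak's summit over its local background, gives the strength of these promoters within each list. Prdm9 was strong for Sp5 and weak for p300. Its fold was 37.4 and 26.5 in the 2 Sp5 libraries and 3.70 and 4.11 in the 2 p300 libraries. Arhgap1 had 29.03 and 20.4 for Sp5, and 6.94 and 8.83 for p300. At T the Sp5 folds were 13.5 and 6.72 and the p300 folds 6.12 and 6.54. Mobp had p300 folds of 27.5 and 36.0 and no peak in either Sp5 library. At the Sp5 promoter p300 was strong for its list, at 11.4 and 11.1, and Sp5 was at 4.82 and 6.24. Folds of different lists are not on 1 scale, so each value is read against the medians of its own list given further on.

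Most Sp5 regions held p300, and most p300 regions held no Sp5. p300 was found at 84.7% of the Sp5 regions, and Sp5 at 17.3% of the p300 regions. Over the 4 pairs of single libraries the first share was 72.8% to 85.6% and the second 13.6% to 21.9%. The pairs with Sp5 replicate 1, the longer Sp5 list, gave 72.8% and 73.1%, and those with the shorter Sp5 replicate 2 gave 85.6% and 85.2%.

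Both shares fell when the lists were cut to equal length. The cut kept the strongest peaks, so length and strength changed together, and the part of each was not tested. When all 4 lists were reduced to their 11932 strongest peaks by fold, the length of the shortest list, 712 of 9240 Sp5 regions (7.71%) held p300 and 709 of 9573 p300 regions (7.41%) held Sp5. At that length the gene-end share of Sp5 regions with p300 was 46.8 percentage points below that of Sp5 regions without it, the reverse of the full lists. The strongest p300 regions were mostly distal and the strongest Sp5 regions mostly at gene ends, as the values by rank show.

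Part of the Sp5 regions without p300 had a p300 peak in 1 library. Of the 1671, 371 had a peak in p300 replicate 1 alone, 445 in replicate 2 alone and 14 had peaks of both that did not overlap each other. No p300 peak at all was found at 841, which is 50.3% of the 1671 and 7.68% of all Sp5 regions. At 15 of the 1671 a p300 peak had been dropped because it lay over an input peak. Sp5 regions without p300 lay a median of 6756 bp from the nearest p300 region, and 39.6% lay more than 10 kb away. In the other direction, 9.87% of the p300 regions without Sp5 had a peak in at least 1 Sp5 library, and their median distance to an Sp5 region was 70037.5 bp.

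Position divided the p300 regions with Sp5 from those without. Of the p300 regions with Sp5, 66.1% lay at a gene end, against 8.02% of those without. Read the other way, 63.3% of the 9587 p300 regions at gene ends held Sp5, against 7.18% of the 43438 distal ones. The gene-end share with Sp5 was 56.0% to 74.5% over the 4 library pairs and the distal share 5.88% to 11.1%, so the ranges did not overlap. Of the distal p300 regions, those inside genes held Sp5 at 9.05% and those between genes at 5.47%.

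Starts of genes stood apart from their other ends. For the 17492 genes with a start in the RefSeq promoter table, 67.3% of the 8183 p300 regions within 1 kb of a start held Sp5, against 17.6% of the 615 within 1 kb of the other end. Some regions called distal also lay at a further start of a gene: 23.1% of the distal p300 regions with Sp5 and 1.32% of those without. With these set aside, 5.68% of 42184 distal p300 regions held Sp5.

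Sp5 regions followed the same order with a smaller contrast. Of the Sp5 regions with p300, 66.3% lay at a gene end, against 40.8% of those without p300. p300 was found at 90.0% of the 6833 Sp5 regions at gene ends and at 76.0% of the 4120 distal ones. Over the library pairs the gene-end share was 57.6% to 63.9% with p300 and 25.0% to 37.5% without. Of the 841 Sp5 regions with no peak in either p300 library, 32.6% were at a gene end. Input peaks also gathered at gene ends, as given above. With the peaks over them kept, the gene-end difference was 26.3 percentage points for Sp5 regions and 58.3 for p300 regions, against 25.5 and 58.0. Keeping them changed few regions, to 11378 Sp5 and 53512 p300 regions from 10953 and 53025. The part of background too low to be called as an input peak was therefore not tested.

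**Figure D1:**
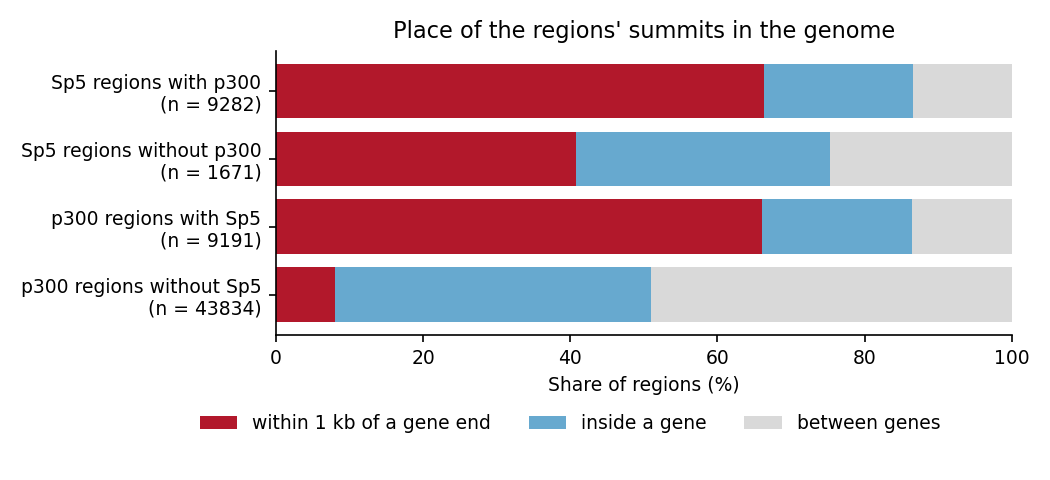
Share of regions (x axis, %) whose summit lay within 1 kb of a gene end, inside a gene or between genes, for the 4 classes of regions (y axis, with the number in each). Gene ends take 66.3% and 66.1% of the 2 classes that hold both proteins, 40.8% of Sp5 regions without p300 and 8.02% of p300 regions without Sp5.

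Ranked by strength, the 2 proteins ran in opposite directions. Regions were put in deciles by the mean of their ranks in the 2 lists of their protein. In the strongest decile of Sp5 regions 92.7% held p300, and the share fell with each decile to 77.4% in the weakest. In the strongest decile of p300 regions 8.81% held Sp5, and in the weakest 22.97%. Gene ends made up 2.45% of the strongest decile of p300 regions and 30.2% of the weakest.

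Within one kind of place the order of the p300 regions was not the same. Among p300 regions at gene ends, the share with Sp5 was 26.9% in the strongest decile (130 regions), 74.4% in decile 5 and 50.3% in the weakest. Among distal p300 regions it was 8.35% in the strongest decile, 5.10% in decile 3 and 11.1% in the weakest. Sp5 regions kept a higher share in the strongest decile than in the weakest in both places. At gene ends they held p300 at 95.7% in the strongest decile and 82.2% in the weakest, and at distal regions at 86.8% and 71.3%.

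**Figure D2:**
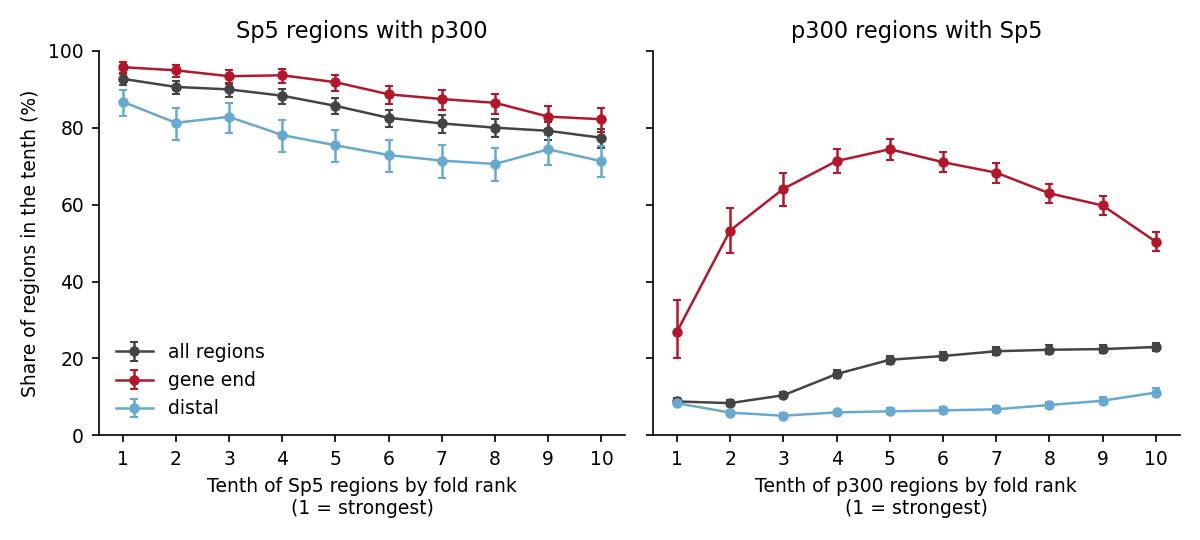
Share of regions that overlap a region of the other protein (y axis, %) by decile of the regions ranked by fold (x axis, 1 is the strongest), for Sp5 regions (left) and p300 regions (right), with all regions, gene-end regions and distal regions as separate lines. Bars are 95% Wilson intervals over the regions of a decile and cover counting error only. The share of Sp5 regions with p300 falls from 92.7% to 77.4%, while gene-end p300 regions reach 74.4% with Sp5 in decile 5 and distal ones stay between 5.10% and 11.1%.

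Sp5 was somewhat stronger where p300 was present. The median Sp5 fold was 8.68 with p300 and 7.20 without in replicate 1, and 5.96 and 5.27 in replicate 2. The quartiles overlapped widely, at 6.53 to 11.8 with p300 and 5.69 to 9.67 without in replicate 1. Sp5 regions with p300 were also wider, with a median of 580 bp against 417 bp.

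For p300 the sign of the difference depended on the place. Over all p300 regions the median fold was lower with Sp5 than without, at 5.47 against 6.33 in replicate 1 and 6.05 against 7.06 in replicate 2. At gene ends it was higher with Sp5, at 5.33 against 4.95 and 5.86 against 5.43. At distal regions it was lower, at 5.94 against 6.45 and 6.74 against 7.30. The lower value over all regions was not found in every pair of single libraries. With peaks of 1 p300 library each, the medians with and without Sp5 were 5.37 and 5.75, and 5.39 and 5.73, for p300 replicate 1. For p300 replicate 2 they were 5.83 and 5.83, and 5.87 and 5.81. Without p300 replicate 1, the ratio of the medians with to without Sp5 was 1.00, against 0.860 with both.

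The fold is a ratio, and both of its parts moved. p300 summits with Sp5 held a median of 31 and 26 fragments in the 2 libraries, against 25 and 22 without Sp5. The local background under them was 4.88 and 3.48 fragments, against 3.08 and 2.12. p300 regions with Sp5 were 891 bp wide at the median, against 469 bp. More fragments thus lay at p300 summits with Sp5, over a background that was higher as well, and whether the background bears on the overlap was not tested.

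**Figure D3:**
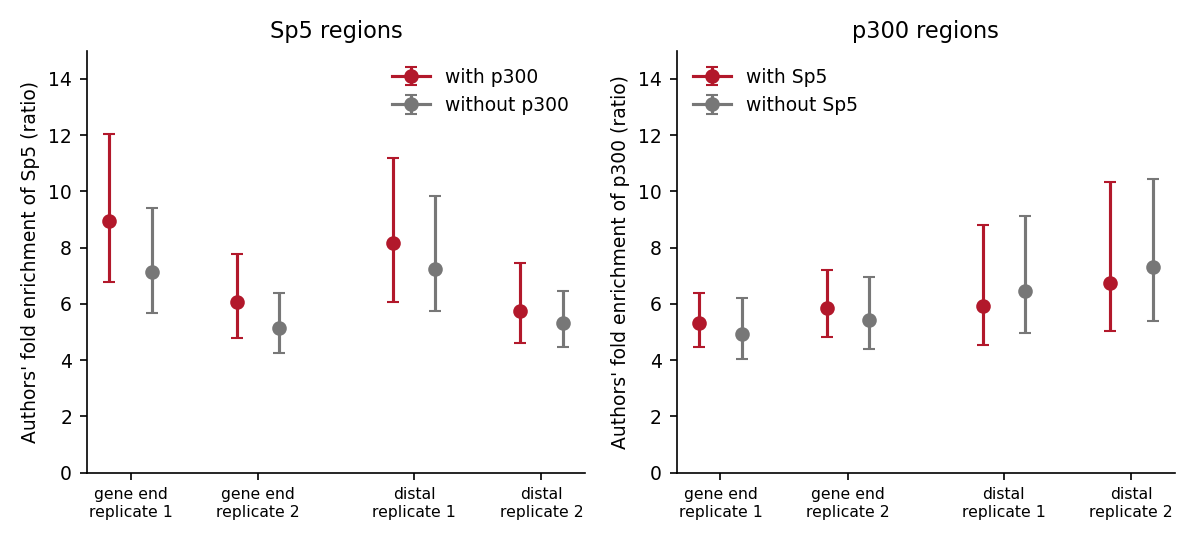
The authors' fold enrichment (y axis, ratio of summit signal to local background) of Sp5 at Sp5 regions (left) and of p300 at p300 regions (right), by place and replicate (x axis). Points are medians and bars run from the lower to the upper quartile over regions; red is with the other protein and grey without. Sp5 medians are higher with p300 in both places, and p300 medians are higher with Sp5 at gene ends (5.33 against 4.95 in replicate 1) and lower at distal regions (5.94 against 6.45).

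Inside shared regions the summits of the 2 proteins did not fall on the same base. The median distance between an Sp5 summit and the p300 summit was 106 bp over 9282 Sp5 regions, 117 bp at gene ends and 87 bp at distal regions. These distances use summits averaged over the 2 libraries of each protein. Between single libraries the median over all shared regions was 131 bp for Sp5 1 to p300 1 and 110 bp for Sp5 2 to p300 2. The 2 Sp5 libraries placed their summits 36 bp apart at the same regions and the 2 p300 libraries 62 bp. Sp5 and p300 summits lay within 100 bp of each other at 47.8% of the shared regions and more than 500 bp apart at 5.86%. Of the shared regions, 9251 held 1 p300 region and 31 held 2.

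Strength of Sp5 and strength of p300 were only weakly related across shared regions. Spearman's rank correlation between an Sp5 and a p300 fold was 0.113 to 0.154 over the 4 library pairs, for 9282 regions. Between the 2 Sp5 libraries it was 0.800, and between the 2 p300 libraries 0.784. These are descriptions across sites of the same libraries, which share base composition and local background.

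Zeb2, a zinc-finger repressor that binds E-boxes, was found more often where Sp5 and p300 met. It was profiled in gastruloids with the same HA antibody in a line of its own (genotype endogenous Zeb2-HA-FKBP12F36V degron tag). Zeb2 regions overlapped 45.2% of the Sp5 regions with p300 and 17.4% of those without. Among p300 regions it was at 46.1% with Sp5 and 8.47% without. The contrast was present in both kinds of place: 48.9% against 28.95% at gene ends, and 40.7% against 6.68% at distal regions. The nuclear receptor RXRα, pulled down with HA antibody in gastruloids of another line (Rxr[alpha]-HA-FKBP12F36V, tagged at the endogenous gene), covered 10.98% of the Sp5 regions with p300 and 1.80% of those without. Among p300 regions RXRα was at 11.4% with Sp5 and 2.21% without. The 3 factors share the antibody and the degron tag, and the part of these in the overlap was not tested. An overlap needed only 1 bp, and regions with both proteins were wider. Median widths were 891 bp against 469 bp for p300 regions and 580 bp against 417 bp for Sp5 regions. The part of width was not tested either. For Sp5 regions the Zeb2 difference was 27.8 percentage points, 13.6 with a −log10 q of at least 5 and 8.08 with summits within 200 bp.

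p300 in mESCs of the same genotype gave the opposite order over all regions. Of the p300 regions with Sp5, 20.1% also lay in a p300 region of mESCs, against 26.8% of those without Sp5. At gene ends the shares were 16.5% and 15.3%, and at distal regions 26.9% and 27.8%. The difference over all regions was thus larger than that in either place. Sp5 regions with p300 in gastruloids overlapped p300 of mESCs at 18.5% and those without at 4.25%.

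At promoters the GC box went with Sp5. Of 21263 RefSeq promoter windows, each from 250 bases before to 50 bases after a start, 9513 overlapped a p300 region (44.7%), and 6424 overlapped both an Sp5 and a p300 region (30.2%). A GC box, searched as GGGCGG on both strands, was in 81.6% of the windows with both proteins, 49.9% of the 3089 with p300 only, 82.1% of the 624 with Sp5 only and 22.8% of the 11126 with neither, against 46.2% of all windows. Among p300 promoters, Sp5 was present at 43.3% of those with no GC box, 68.0% of those with 1, 79.3% of those with 2 and 87.3% of those with 5 or more. The share also rose with base composition. It was 44.7% under 55% G and C, 67.7% from 55% to under 65%, and 77.3% from 65% upward. The number of GC boxes was not compared at equal base composition.

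Windows with both proteins were richer in G and C, with a median of 64.3% against 59.3% for p300 only. In windows under 55% G and C the GC box was in 55.2% with both and 23.5% with p300 only. Between 55% and 65% the shares were 76.8% and 48.6%, and from 65% upward 92.0% and 79.3%. Windows with neither protein had a median of 50% G and C, and in the same 3 bands 8.29%, 44.5% and 83.0% of them held a GC box. The Sp5-type box GGGCGTG was in 21.5% of windows with both and 8.42% with p300 only, against 10.9% of all windows. The CCAAT box (CCAAT) was in 36.9% and 38.2%, against 38.2% of all. The Tcf/Lef core (CTTTGA) was in 9.28% and 13.3%, against 14.4% of all. The CACCC box (GGGTGTG) was in 8.17% and 7.54%, against 8.02% of all. The E-box of Zeb factors (CAGGTG) was in 17.01% and 18.4%, against 19.7% of all, and the cAMP response element core (TGACGT) in 13% and 11.8%, against 8.49%. Each motif was read on both strands. The GC box and the Sp5-type box share their first 5 letters, and no motif contains another.

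GC boxes were denser at Sp5 summits than further away, and level around p300 summits. At promoters with both proteins, taking 1 window per gene, there were 13.6 GC boxes per kb within 40 bp of the Sp5 summit and 4.59 per kb at 100 to 200 bp from it, over 4784 promoters. Around the p300 summit at promoters of the same class the densities were 7.85 and 7.40 per kb, over 4579. At promoters with Sp5 only they were 14.1 and 3.41 per kb around the Sp5 summit, and with p300 only 3.43 and 3.29 around the p300 summit. p300 summits were placed less closely. At shared gene-end regions the 2 p300 libraries differed by a median of 76 bp, against 37 bp for the 2 Sp5 libraries. The part of this scatter in the level p300 profile was not tested.

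Base composition rose toward the Sp5 summit as well, from 62.7% to 69.7% G and C. A GC repeat with no GC box in it (GCGCGC, chosen after the values were seen) went from 1.93 to 2.68 per kb, and was in 33.4% of windows with both, 26.4% with p300 only and 17.9% of all. The Sp5-type box went from 0.607 to 2.08 per kb, a ratio of 3.43 beside 2.96 for the GC box and 1.39 for the GC repeat. The CCAAT box stayed at 2.06 and 1.99 per kb. A match to these letters is a description of sequence and no proof of a bound site.

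**Figure D4:**
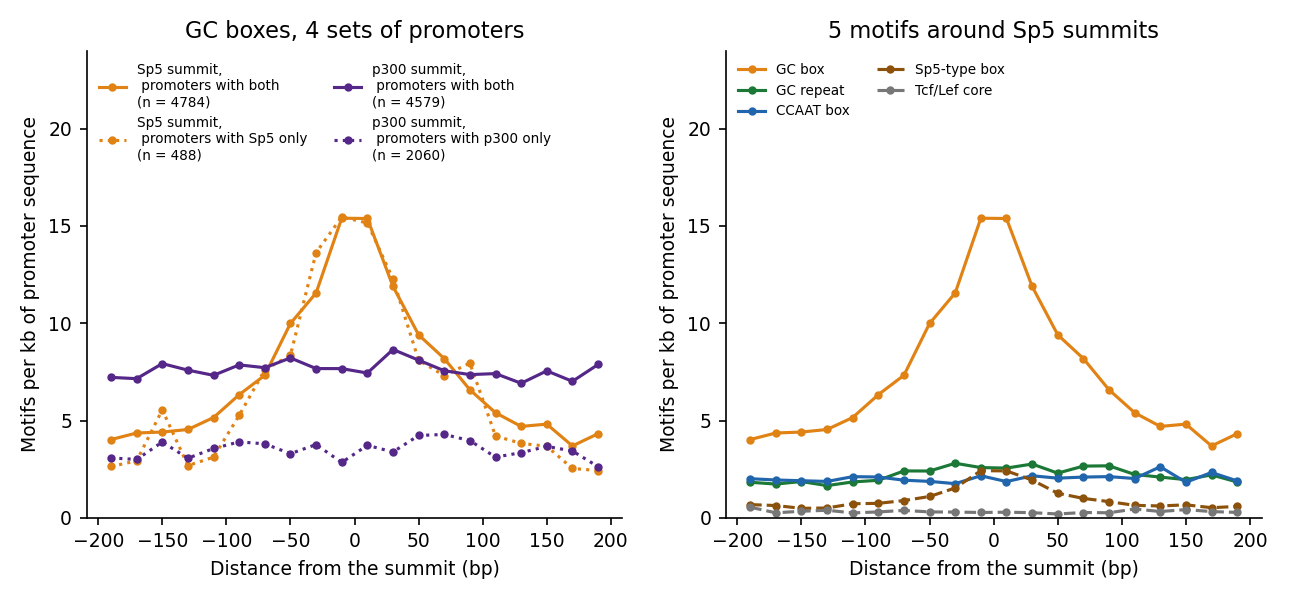
Motifs per kb of promoter sequence (y axis) by distance from the summit in bins of 20 bp (x axis). The left panel gives GC boxes around Sp5 summits (orange) and p300 summits (purple), with solid lines for promoters with both proteins and dotted lines for 1 protein. The right panel gives 5 motifs around Sp5 summits at promoters with both. GC boxes peak at the Sp5 summit in both sets of promoters and are level around p300 summits. At shared gene-end regions p300 summits differ more between libraries (median 76 bp) than Sp5 summits (37 bp).

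Genes were linked to regions by the nearest gene end within 100 kb, and nearness is no evidence of regulation. By this rule 7770 of 21887 protein-coding genes (35.5%) had at least 1 Sp5 region with p300, 1464 (6.69%) had an Sp5 region without p300, and 14935 (68.2%) had a p300 region. An Sp5 region with p300 at one of its ends was found for 27.6% of genes, and a distal p300 region with Sp5 for 11%. Of all p300 regions linked to genes, 20.9% held Sp5.

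Genes of the Wnt pathway often had both proteins. Of 26 Wnt targets and feedback genes, 21 had an Sp5 region with p300 (80.8%, against 35.5% of all genes). This included 18 at a gene end (69.2%, against 27.6% of all genes). These genes also had many p300 regions, a median of 7 per gene against 1 over all genes. Of their 203 p300 regions 35 held Sp5 (17.2%), below the 20.9% of all linked p300 regions. At gene ends it was 18 of 22 (81.8%, against 63.3% over all genes) and at distal regions 17 of 181 (9.39%, against 8.57% over all genes). Tcf7l1, which encodes a Tcf factor that represses Wnt targets when β-catenin is low, and Nkd1, which encodes an inhibitor of Dishevelled, had 4 Sp5 regions with p300 each. Lef1, which encodes a nuclear partner of β-catenin, had 3. Trabd2b, which encodes a metalloprotease that inactivates Wnt proteins, had 16 p300 regions and no Sp5 region found in both libraries; without Sp5 replicate 2 it had 2 shared regions.

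The 19 Wnt ligand genes had Sp5 at a larger part of their p300 regions, though the list is small. Sp5 was at 17 of 50 (34%, against 20.9% over all genes), and at 12 of the 44 distal ones (27.3%, against 8.57% over all genes). Wnt10a had 3 Sp5 regions with p300, and Wnt11 and Wnt3 had 2 each. Wnt3a, Wnt6 and Wnt7a had an Sp5 region without p300 and none with it; these 3 were picked after their values were seen.

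Of the 26 Sp and Klf genes, 20 had an Sp5 region with p300 (76.9%, against 35.5% of all genes). Of their 134 p300 regions 26 held Sp5, and this 19.4% is near the 20.9% of all linked p300 regions. These genes had a median of 5.5 p300 regions each. Sp1, the best-known factor of the family, had 3. Sp8, the tail-bud relative of Sp5, had 2 of 6, and its promoter region showed Sp5 folds of 15.5 and 11.3 and p300 folds of 6.40 and 5.80. Klf4, a pluripotency factor, had 1 region with Sp5 folds of 13.8 and 11.1 and p300 folds of 14.0 and 17.3. Klf6 had 11 p300 regions and no Sp5 region, and 1 shared region without Sp5 replicate 2.

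The genes of the embryonic axis lay below the share of all genes over all their p300 regions and at gene ends, and above it at distal regions. Within each place the neural tube genes were near the share of all genes. Sp5 was at 15 of 92 p300 regions of the 22 primitive streak and tail bud genes (16.3%), 19 of 117 for the 23 presomitic mesoderm and somite genes (16.2%) and 19 of 128 for the 23 neural tube genes (14.8%), against 20.9% over all genes. At distal regions the shares were 13.75%, 11.9% and 10.3%, against 8.57%, and at gene ends 33.3%, 43.75% and 58.3%, against 63.3%. All 22 streak genes and 22 of the 23 presomitic genes had a p300 region, against 68.2% of all genes. An Sp5 region with p300 was found for 13 and 12 of them (59.1% and 52.2% of the lists, against 35.5% of all genes). Uncx, a homeobox gene of the hind part of the somite, had 4, and Hes7, the repressor of the somite clock, had 3, while the Notch ligand gene Dll1 had 6 p300 regions and no Sp5 region found in both libraries. Without Sp5 replicate 2, Dll1 had 2 shared regions.

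The 39 Hox genes, which set position along the axis, differed from the background by place. Sp5 was at 15 of their 72 distal p300 regions (20.8%, against 8.57%) and at 6 of their 20 gene-end regions (30%, against 63.3%). Hoxb1 and Hoxb9 had 2 Sp5 regions with p300 each, as did Hoxc4. Neighbouring Hox genes share intervals, so the nearest end splits regions of 1 cluster between its genes.

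The lists of pluripotency, endoderm, vascular and adult tissue genes had the smallest parts. Sp5 was at 6 of 95 p300 regions of the 18 pluripotency genes (6.32%), 5 of 67 for 15 endoderm and notochord genes (7.46%), 5 of 74 for 17 endothelial, blood and cardiac genes (6.76%) and 1 of 14 for 20 adult tissue genes, against 20.9% over all genes. Most of these regions were distal: 90, 65, 69 and 11 of them in the same order. Among the distal ones Sp5 was at 3.33%, 6.15%, 4.35% and 9.09%, against 8.57% over all genes. The adult tissue share by place was thus not below that of all genes at distal regions. All 18 pluripotency genes had a p300 region, against 68.2% of all genes, and 5 had an Sp5 region with p300 (27.8%, against 35.5% of all genes). Nr5a2, a nuclear receptor gene of that list, had 12 p300 regions and no Sp5 region. Prdm1 had 15 and Runx1 had 11, both without Sp5. Without Sp5 replicate 2, Nr5a2, Prdm1 and Runx1 each had 1 shared region.

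Ribosomal protein genes, which are active in nearly all cells, had the highest part. Of their 121 p300 regions 52 held Sp5 (43.0%, against 20.9% of all linked p300 regions). An Sp5 region with p300 was found for 47 of the 77 genes (61.0%, against 35.5% of all genes). At gene ends it was 44 of 65 (67.7%), near the 63.3% of all gene-end p300 regions. The 16 coactivator genes had Sp5 at 12 of 47 p300 regions (25.5%), near the 20.9% of all linked p300 regions. By place it was 8 of 12 at gene ends (66.7%, against 63.3%) and 4 of 35 at distal regions (11.4%, against 8.57%). Crebbp, which encodes the close relative of p300, had an Sp5 region with folds of 15.6 and 12.04 that held p300 at 6.82 and 7.47.

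**Figure D5:**
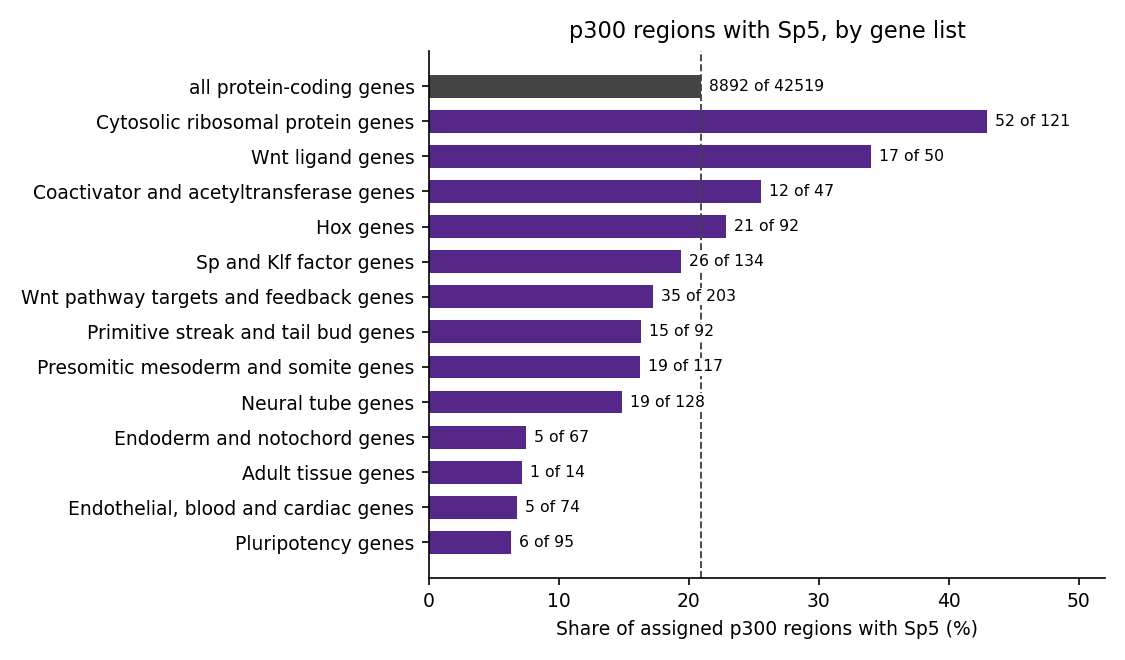
Share of p300 regions that hold Sp5 (x axis, %) among the regions linked to the genes of each list (y axis), with the numbers of regions beside the bars. The dashed line is the 20.9% of all linked p300 regions. Bars are not split by place, and the lists differ in how many of their regions are distal. Ribosomal protein genes are highest at 43.0% and pluripotency genes lowest at 6.32%; bars of small lists rest on few regions, such as 14 for adult tissue genes.

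At its own gene Sp5 had 2 regions, and both held p300. The stronger lay 17776 bp from the start (chr2:70456834-70457375), with Sp5 folds of 16.8 and 15.4 and p300 folds of 7.07 and 8.15. The other covered the promoter (chr2:70474449-70475218), with Sp5 folds of 4.82 and 6.24 and p300 folds of 11.4 and 11.1 from 242 and 182 fragments. Between these 2 regions the order of the proteins was reversed, Sp5 being higher at the distal site and p300 higher at the promoter in all 4 libraries. Of the other 4 p300 regions of the gene, the strongest (chr2:70484723-70485319, folds 14.4 and 18.3) had no Sp5 peak, and 1 had an Sp5 peak in replicate 1 alone (fold 4.05).

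Lef1 had 3 Sp5 regions with p300 and 8 p300 regions without. Its strongest p300 region (chr3:131084539-131085527, folds 16.6 and 20.5) had an Sp5 peak in replicate 1 alone (fold 6.59), and the next (chr3:131102232-131102770, folds 15.1 and 17.9) had none. The shared region at the Lef1 start had lower values, with Sp5 folds of 4.19 and 3.57 and p300 folds of 2.70 and 3.29. The p300 folds of the 3 shared regions ran from 2.70 to 10.3 in replicate 1.

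Axin2, a feedback inhibitor of the Wnt pathway, had 12 p300 regions, 1 of them with Sp5 in both libraries. Of the other 11, 1 had an Sp5 peak in replicate 1 alone (fold 4.13) and 1 in replicate 2 alone (fold 3.37). Without Sp5 replicate 2 the count of shared Axin2 regions was 3, and with summits within 200 bp it was 0. The shared region (chr11:108920073-108921592) had its Sp5 summit 57 bp from a RefSeq start inside the gene, with Sp5 folds of 15.7 and 8.80 and p300 folds of 7.35 and 5.95 from 148 and 94 fragments. The strongest p300 region of Axin2 lay 49647 bp from the gene (folds 14.7 and 16.5) and had no Sp5 peak. T had 1 shared region, at its promoter, and 2 further p300 regions, 1 of which had an Sp5 peak in replicate 1 alone (fold 5.35). Ep300 had 1 shared region (chr15:81585088-81586539) with Sp5 folds of 7.77 and 4.61 and p300 folds of 6.06 and 6.78. Its Sp5 and p300 summits were more than 200 bp apart, so that Ep300 had no shared region when summits had to lie within that distance.

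The 4 strongest shared regions at gene ends and the 4 strongest distal ones, ranked by their Sp5 folds, differed in p300. At gene ends they belonged to Lamtor3, which encodes a subunit of the Ragulator complex, Prdm9, Cyb5r4 and Ap1s1. Lamtor3 had Sp5 folds of 40.1 and 24.9, far above the medians of 8.68 and 5.96, and p300 folds of 6.15 and 6.55, near the medians of 5.47 and 6.05. Cyb5r4 had Sp5 folds of 31.8 and 20.0 and p300 folds of 9.05 and 10.3. Ap1s1 had Sp5 folds of 31.5 and 20.8 and p300 folds of 7.17 and 9.04. The p300 folds of Cyb5r4 and Ap1s1 were above the upper quartiles of gene-end p300 regions with Sp5, 6.39 and 7.20 in the 2 libraries. Among distal regions Zfp703, whose gene encodes a zinc-finger repressor, was high for both, with Sp5 folds of 33.8 and 21.7 and p300 folds of 22.5 and 28.3, and it also held Zeb2 and RXRα. Ehbp1 had Sp5 folds of 30.9 and 19.8 and p300 folds of 5.89 and 6.94. A region on the X chromosome with no gene end within 100 kb (chrX:142567245-142567741) had Sp5 folds of 31.8 and 18.8 and p300 folds of 9.69 and 15.3. The remaining one was linked to Fhod3, with Sp5 folds of 30.4 and 18.6 and p300 folds of 6.61 and 9.33. Of these 4 distal regions, those of Zfp703 and the X chromosome were above the upper quartiles of distal p300 regions with Sp5, 8.80 and 10.3.

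Sp5 regions with no p300 peak in either library could be as strong. Cldn1, which encodes a tight-junction protein, had Sp5 folds of 34.2 and 19.6 at a site 45 bp from its start (chr16:26371644-26372091). The next were Pex10 with 23.8 and 15.0, Gid4 with 25.2 and 13.2, Taok3 with 19.7 and 12.7, and Cdk6 with 22.9 and 11.3. The first 4 of these 5 were at gene ends, as were 32.6% of all 841 such regions.

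The strongest p300 regions with no Sp5 peak were distal, and all 5 were p300 regions in mESCs too. Of all 39509 p300 regions with no peak in either Sp5 library, 4.69% were at a gene end and 27.6% overlapped p300 of mESCs. Whether the mESC overlap of the 5 goes with their p300 strength or with the lack of Sp5 was not tested. The first (chr14:53439544-53439994), with no gene end within 100 kb, had p300 folds of 33.7 and 42.7. Those linked to Specc1, Abca4, Sptlc2 and Zbtb44 had folds of 29.1 to 30.0 in replicate 1 and 34.0 to 37.0 in replicate 2. The genes with the most p300 regions and no Sp5 region were Frmd4b and Fto with 17 each, and Angpt1 and Arid5b with 16 each. Without Sp5 replicate 2, Frmd4b and Arid5b had 2 shared regions each and Fto and Angpt1 had 1 each.

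The genes with the most Sp5 regions with p300 were Gins2 and Pax2 with 6 each, followed by Tle3, Tcf12, Rnf220, Fancc and Trim27 with 5 each. Grik3 was one of several genes with 4 and came first among them by its 23 p300 regions. This order moved with the settings. With a −log10 q of at least 5, Pax2 had 3 and Tcf12 5. With summits within 200 bp Gins2 had 3, and with lists of equal length Gins2 and Pax2 had 0. For Pax2, a homeobox gene of the intermediate mesoderm and the midbrain, all 6 were distal, and they were 6 of its 15 p300 regions. Tle3, which encodes a Groucho corepressor that binds Tcf factors, had 5 of 22, all distal, and the strongest had Sp5 folds of 16.5 and 9.43 and p300 folds of 10.6 and 9.48. Tcf12, an E-protein gene, had 5 of 21. Trim27 had 4 more Sp5 regions without p300, and its strongest shared region had Sp5 folds of 18.98 and 10.02 beside p300 folds of 3.26 and 3.26.

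Among the listed genes, some distal regions were high for p300 as well as for Sp5. The 5 named here were picked after their values were seen. Tcf7l1 had a region 77185 bp from its nearest end, inside the gene (chr6:72711591-72712175), with Sp5 folds of 19.6 and 12.4 and p300 folds of 17.5 and 20.2. Pax7, a paired-box gene of the dorsal neural tube, had one with Sp5 folds of 10.6 and 8.05 and p300 folds of 17.5 and 23.9. Tbx3, a T-box gene, had Sp5 folds of 7.75 and 6.68 and p300 folds of 21.8 and 26.5. Each of these regions also held Zeb2 and RXRα, as did a distal region of the neural homeobox gene Irx3 with Sp5 folds of 8.29 and 5.91 and p300 folds of 16.6 and 17.6. Gata4, an endoderm and heart factor gene, had Sp5 folds of 17.1 and 8.67 and p300 folds of 15.8 and 20.4 at a region with neither of them. All p300 folds of these 5 regions were above the upper quartiles of distal p300 regions with Sp5, 8.80 and 10.3.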

How the data were processed

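Chromatin immunoprecipitation libraries of Sp5 and p300 from gastruloids, 2 each, were compared. The authors deposited 1 peak list per library. The submitters' processing notes name MACS2 2.2.7, BWA 2.2.1, fastp 0.20.1 and the builds GRCm38.p6 and mm10, with no roles. Whether an input served as control is not given in the sources used here. Each deposited fold is a ratio of summit signal to local background. The deposited −log10 p and −log10 q reach down to a q of 0.05. From fold and p together, the fragments under each summit came out whole within 0.01.

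Peaks over any of the 625 input peaks were dropped. Regions, overlaps (1 bp), gene ends (1 kb; 21887 RefSeq genes), linked genes (100 kb) and motifs were computed with numpy 2.4.6, pandas 2.3.3 and scipy 1.17.1, and the code was tested on simulated lists. Named regions are the strongest of each class by mean rank of the fold. Named genes are those with the most regions in all genes and in each list, and Sp5, Ep300, Axin2, T and Lef1; exceptions are stated. All 341 entries of the 13 gene lists matched. The members, lists and rules were chosen with earlier results of these data known. No test was made, for lack of replicates. Alternatives were a stricter q, other overlap rules, kept input peaks, equal list lengths, left-out libraries and other distances.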

Additional observations from a re-analysis of the deposited data

How the results depend on the processing

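No paired analysis was possible because the results come from no test, and the numbers 1 and 2 do not tie an Sp5 library to a p300 library. A share, difference or ratio is called moved where it changed by at least 1 standard deviation over the 4 library pairs. The count of genes is called moved where it changed by over 1.5 times. Lists of equal length changed most. The share of Sp5 regions with p300 became 7.71% (84.7% in the report) and that of p300 regions with Sp5 7.41% (17.3%). The gene-end difference, with minus without the other protein, became -46.8 percentage points for Sp5 regions (25.5), a reversal, and 18.1 for p300 regions (58.0). The p300 fold ratio, with to without Sp5, became 0.993 (0.860), the mESC difference -0.732 (-6.72), the Zeb2 difference 12.1 (27.8), the genes 564 (7770), the promoter GC box difference 56.0 (31.7) and the gene-end p300 share 42.2% (63.3%). With a −log10 q of at least 5, the same quantities that moved were 75.3% of Sp5 regions with p300, a gene-end difference of 13.8 for Sp5 regions, a p300 fold ratio of 0.820, an mESC difference of -12.4 and a Zeb2 difference of 13.6. With summits within 200 bp they were 61.4% and 12.7% for the shares, 6.49 and 53.5 for the gene-end differences, 8.08 for Zeb2 and 45.4% for gene-end p300 regions. Gene ends of 500 bp and 2 kb gave p300 gene-end differences of 53.1 and 60.2. With 1 library left out, the share of Sp5 regions with p300 was 69.3% to 88.2% and of p300 regions with Sp5 13.1% to 24.6%, 55.6% to 79.6% at gene ends and 5.32% to 12.5% at distal regions. The gene-end differences were 25.9 to 31.6 and 53.5 to 57.7, the Sp5 fold ratio 1.16 to 1.42 (1.17), the mESC difference -7.86 to -3.94, the Zeb2 difference 28.1 to 29.8 and the GC box difference 31.2 to 37.6. The p300 fold ratio was 0.851 to 1.00, reversing at 1.00425 without p300 replicate 1. The cause of these moves was not tested. Input peaks kept moved none of these results. The GC repeat and 3 results (both shares of p300 regions by place, and the density of GC boxes) were added after seeing the data. Counts of shared regions moved by over 1.5 times, or to or from 0, in at least 1 setting for 63 of the 66 named genes (130 of 660 values). Depth limits weak regions, since a p300 peak could rest on 6 fragments.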
